A study of Mus musculus with 8 samples.

Results

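The transcripts described here are 10 mRNAs of the respiratory chain that are encoded in mitochondrial DNA. They were chosen by gene symbol, as mt-Nd1, mt-Nd2, mt-Nd4, mt-Nd5, mt-Nd6, mt-Cytb, mt-Co1, mt-Co2, mt-Co3 and mt-Atp6, out of 28239 symbols in the deposited counts, and all 10 passed the filter on low counts that left 12700 genes. Naïve CD4+ T cells, isolated with magnetic beads that deplete other cells from spleens of WT mice and of Alox15-/- mice, both on a C57BL/6 background, were cultured for 2 days with IL-2, TGF-β and beads carrying antibodies to CD3 and CD28, so that cells of both groups were differentiating to Tregs. The study's methods give an age of 10 to 12 weeks and both sexes for its mice, without the sex behind each library, and the Alox15 deletion is present in the whole animal. They name Charles River as the supplier of the C57/Black6 mice and The Jackson Laboratory as that of the Alox15-/- mice. Littermates are not mentioned, so effects of supplier and of genotype cannot be told apart. There were 4 libraries labelled Alox15-/- and 4 labelled WT, made by MACE-seq, which reads transcripts near their 3′ ends. Libraries held between 3723151 and 9538962 counts.

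The targeted gene Alox15 went against the labels. Its level lay between 63.7 and 70.5 CPM across the Alox15-/- libraries and between 1.88 and 9.02 CPM across the WT libraries, CPM being a gene's count relative to the scaled library total (log2 fold change 3.65, standard error 0.30, edgeR adjusted p = 1.08e-05). Which part of the gene was deleted is not given in the sources used here, so whether these 3′ counts lie outside that part is not known. Why they were higher with the Alox15-/- label was not tested. Groups are named by their labels throughout. Markers of the labelled cells were present in every library, with Cd3e between 249 and 296 CPM, and 0 of 10 listed were called. Cd4 was at 297, 210, 278 and 290 CPM in Alox15-/- replicates 1 to 4 and at 329, 334, 328 and 352 CPM in WT replicates 1 to 4, without overlap. Groups that did not overlap were found in 5.25% of all genes tested, and Cd4 was not called. Foxp3, the defining factor of Tregs, was at 71.7, 95.5, 93.0 and 114 CPM against 109, 102, 195 and 93.4 CPM, and its groups overlapped. Markers of other cells also moved with the labels, although the isolation is one that depletes such cells. Summed erythroid markers (9 of 10 listed symbols, 5 of 6 tested called higher) were at 920 to 3523 CPM in the libraries labelled Alox15-/- and 73.1 to 141 CPM in those labelled WT. Of the myeloid markers 6 of 7 tested were called higher (51.4 to 390 CPM against 13.9 to 20.8 CPM), as were 8 of 9 of mast cells and basophils, 6 of 8 of NK and γδ T cells and both tested for eosinophils. In the other direction, B cell markers summed to 6.03 to 8.69 CPM against 9.09 to 21.4 CPM, with 1 of 2 tested called lower, and CD8 T cell markers to 12.1 to 21.9 CPM against 21.5 to 31.8 CPM with 0 called. The platelet list had 0 called at 2.66 to 13.0 CPM against 0.641 to 1.51 CPM. No marker of these lists was at 0 in all libraries. In RNA from bulk cells, fewer cells of a type and less RNA per cell cannot be told apart.

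Mitochondrial DNA is a small circle that is transcribed from both strands into long precursors, which are cut into mRNAs largely at the transfer RNAs that lie between them. Its mRNAs encode core subunits of complexes I, III, IV and V of the respiratory chain, and the remaining subunits come from nuclear genes. Complex II has nuclear subunits alone. The GENCODE annotation of GRCm38 has 13 protein-coding genes on the mitochondrial chromosome, 2 ribosomal RNA genes and 22 transfer RNA genes. Of the 10 mRNAs, 9 are read from the plus strand and 1, mt-Nd6, from the minus strand.

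The 3′ ends of the genes are shown because MACE-seq counts lie near them and because mitochondrial mRNAs differ in how they end. The last 30 bases of 4 of them are given below from the GENCODE transcripts, with the bases of the stop codon in capitals.
mt-Co1 (chrM:6843-6872, plus strand): gaggaaccaacctatgtaaaagtaaaaTAA
mt-Atp6 (chrM:8578-8607, plus strand): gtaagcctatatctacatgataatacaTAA
mt-Co3 (chrM:9361-9390, plus strand): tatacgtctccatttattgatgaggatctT
mt-Cytb (chrM:15259-15288, plus strand): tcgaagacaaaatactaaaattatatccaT
In 7 of the 10 genes the annotated length is a multiple of 3 and the annotated gene ends with a whole stop codon. In the other 3, mt-Nd4, mt-Co3 and mt-Cytb, the annotated gene ends with a lone T, and as background the stop codon of such mRNAs is completed by the added poly(A) tail. Among the 7, mt-Nd1 and mt-Nd2 overlap the transfer RNA genes that follow on the same strand, mt-Ti from chrM:3706 and mt-Tw from chrM:4950. The last bases of their annotated stop codons therefore also belong to a transfer RNA gene. The ends of mt-Nd5 and mt-Nd6 share 14 bases on opposite strands, shown in capitals in the last 60 bases of mt-Nd5.
mt-Nd5 (chrM:13506-13565, plus strand): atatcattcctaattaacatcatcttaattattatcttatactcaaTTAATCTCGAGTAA

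None of the 10 mRNAs passed the test between the groups. By the quasi-likelihood test of edgeR, with p adjusted by Benjamini–Hochberg across the 12700 genes tested, 0 of 10 were called at 0.05. In the same comparison 1.24% of all genes tested were called, made up of 1.05% that were higher with the Alox15-/- label and 0.197% that were lower. At an unadjusted p under 0.05 the count was 1 of 10, mt-Co2, where 7.84% of all genes tested reached that level, and DESeq2 and limma-voom also called 0 at the adjusted threshold. The log2 fold change of Alox15-/- over WT was above 0 for 6 and below 0 for 4, from -0.15 for mt-Nd6 to 0.34 for mt-Co2. Their median was 0.031, and that of all genes tested was -0.0075. In 0 of the 10 did the groups lie apart without overlap, as they did in 5.25% of all genes tested. The 95% intervals of all 10 lay between -0.35 and 0.66, so that a doubling or a halving was outside each of them, and 7 of the 10 lay within 0.5 of 0 on the log2 scale.

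**Figure D1:**
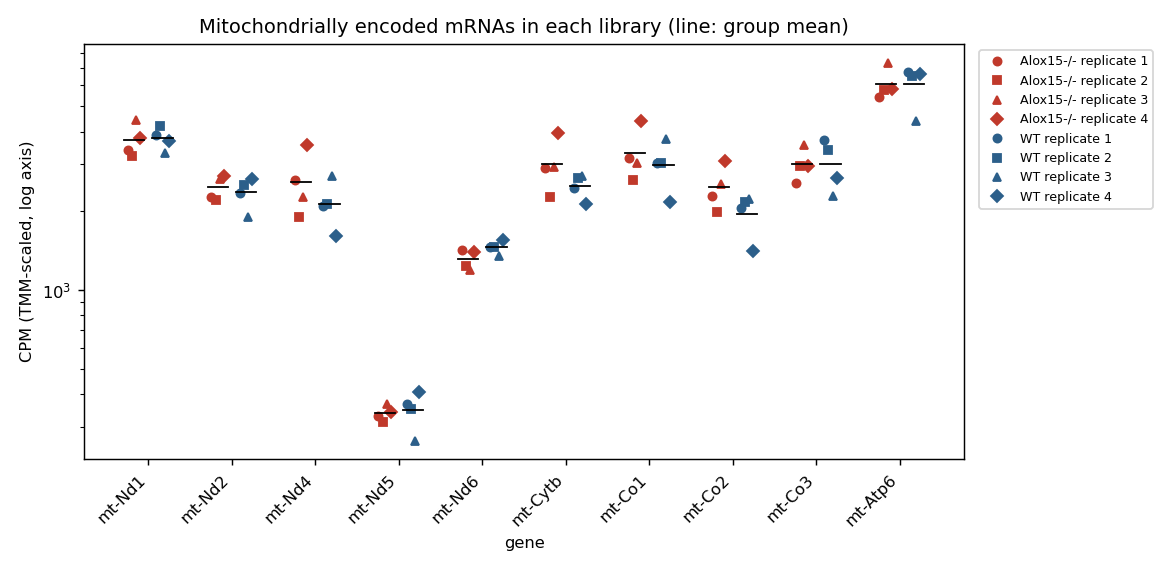
CPM after TMM scaling (log axis) of each of the 10 mitochondrially encoded mRNAs (horizontal axis) in the 4 libraries labelled Alox15-/- (red) and the 4 labelled WT (blue), with a marker shape for each replicate number and a line at each group mean. The groups overlap for every gene, mt-Atp6 is highest and mt-Nd5 lowest, and Alox15-/- replicate 4 stands highest for mt-Nd2, mt-Nd4, mt-Cytb, mt-Co1 and mt-Co2.

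Complex I takes electrons from NADH, and 5 of the mRNAs encode subunits of its membrane arm. mt-Nd1 (ENSMUSG00000064341.1; chrM:2751-3707) was at 3406, 3220, 4437 and 3771 CPM in Alox15-/- replicates 1 to 4 and at 3869, 4223, 3312 and 3681 CPM in WT replicates 1 to 4. The lowest value of all was in Alox15-/- replicate 2 and the highest in Alox15-/- replicate 3, so the spread within that group covered the WT values (log2 fold change -0.024, 95% interval -0.27 to 0.22). mt-Nd2 (ENSMUSG00000064345.1; chrM:3914-4951) was at 2251, 2205, 2635 and 2712 CPM against 2344, 2507, 1898 and 2641 CPM. WT replicate 3 was lowest and the groups overlapped (0.063, 95% interval -0.19 to 0.31).

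mt-Nd4 (ENSMUSG00000064363.1; chrM:10167-11544) was the most uneven of these 5 mRNAs, at 2610, 1896, 2259 and 3566 CPM in the libraries labelled Alox15-/- and at 2091, 2116, 2711 and 1596 CPM in those labelled WT. Alox15-/- replicate 4 was the highest and WT replicate 4 the lowest, and the coefficient of variation was 27.8% in the former group and 21.4% in the latter. The log2 fold change was 0.28 (standard error 0.18, 95% interval -0.10 to 0.66, edgeR adjusted p = 0.773). It was 0.084 without Alox15-/- replicate 4, 0.17 without WT replicate 4, 0.42 without WT replicate 3 and 0.27 to 0.40 without any other single library.

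mt-Nd5 (ENSMUSG00000064367.1; chrM:11742-13565) had the lowest level of the 10, at 329, 312, 368 and 341 CPM against 366, 351, 266 and 407 CPM. The WT libraries alone held both the lowest and the highest value (log2 fold change -0.040, 95% interval -0.30 to 0.22). mt-Nd6 (ENSMUSG00000064368.1; chrM:13552-14070, minus strand) was at 1415, 1227, 1188 and 1394 CPM against 1451, 1449, 1349 and 1550 CPM. The means were 1306 ± 115 CPM (SD, n = 4) and 1450 ± 82.2 CPM (SD, n = 4), and 2 libraries labelled Alox15-/- lay within the WT range. The log2 fold change was -0.15 (standard error 0.095, 95% interval -0.35 to 0.053, edgeR adjusted p = 0.771). Counts on mt-Nd6 were 3.23 to 5.07 times those on mt-Nd5 in the 8 libraries, a ratio chosen after the values were seen. The 2 genes face each other and share their last 14 bases, shown above, and the strand used in counting is not given in the sources used here, so reads from mt-Nd6 and from an mt-Nd5 transcript that runs past its annotated end cannot be told apart.

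Complex III passes electrons to cytochrome c, and its cytochrome b is encoded by mt-Cytb (ENSMUSG00000064370.1; chrM:14145-15288). It was at 2905, 2254, 2931 and 3951 CPM in the libraries labelled Alox15-/- and at 2438, 2674, 2706 and 2123 CPM in those labelled WT. In the former group 3 libraries lay above every WT library and replicate 2 lay within the WT range. The log2 fold change was 0.28 (standard error 0.14, 95% interval -0.030 to 0.58, edgeR adjusted p = 0.695). It was 0.12 without Alox15-/- replicate 4 and 0.21 to 0.39 without any other single library.

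Complex IV, cytochrome c oxidase, reduces oxygen, and its catalytic core is made of the products of mt-Co1, mt-Co2 and mt-Co3. mt-Co2 (ENSMUSG00000064354.1; chrM:7013-7696) had the smallest p of the 10, at 2276, 1978, 2526 and 3089 CPM against 2044, 2151, 2207 and 1400 CPM. In the libraries labelled Alox15-/- 3 values lay above every WT value, replicate 2 lay among them, and WT replicate 4 was far below the rest. The means were 2467 ± 471 CPM (SD, n = 4) and 1951 ± 373 CPM (SD, n = 4), with a log2 fold change of 0.34 (standard error 0.15, 95% interval 0.014 to 0.66, edgeR adjusted p = 0.616), which did not pass. It was 0.21 without WT replicate 4 and likewise 0.21 without Alox15-/- replicate 4, and 0.33 to 0.43 without any other single library.

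mt-Co1 (ENSMUSG00000064351.1; chrM:5328-6872) was at 3178, 2607, 3038 and 4393 CPM against 3029, 3038, 3739 and 2158 CPM. The highest library of each group was Alox15-/- replicate 4 and WT replicate 3, which are also the libraries of highest total count in their groups, 6952596 and 9538962. The part of depth in these levels was not tested. The log2 fold change was 0.14 (95% interval -0.21 to 0.50) and fell below 0, to -0.023, without Alox15-/- replicate 4. It was 0.019 without WT replicate 4 and 0.27 without WT replicate 3. mt-Co3 (ENSMUSG00000064358.1; chrM:8607-9390) was at 2540, 2970, 3550 and 2961 CPM against 3730, 3393, 2280 and 2658 CPM, so that WT libraries were both highest and lowest (log2 fold change -0.0047, 95% interval -0.32 to 0.31).

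Complex V is the ATP synthase, and mt-Atp6 (ENSMUSG00000064357.1; chrM:7927-8607) encodes a subunit of its proton channel. It had the highest level of the 10, at 5442, 5757, 7317 and 5806 CPM against 6730, 6522, 4411 and 6656 CPM. WT replicate 3 lay well below the other 3 WT libraries, and the group means were 6081 ± 840.0 CPM (SD, n = 4) and 6079 ± 1116 CPM (SD, n = 4). The log2 fold change was 0.00039 (standard error 0.14, 95% interval -0.30 to 0.30).

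**Figure D2:**
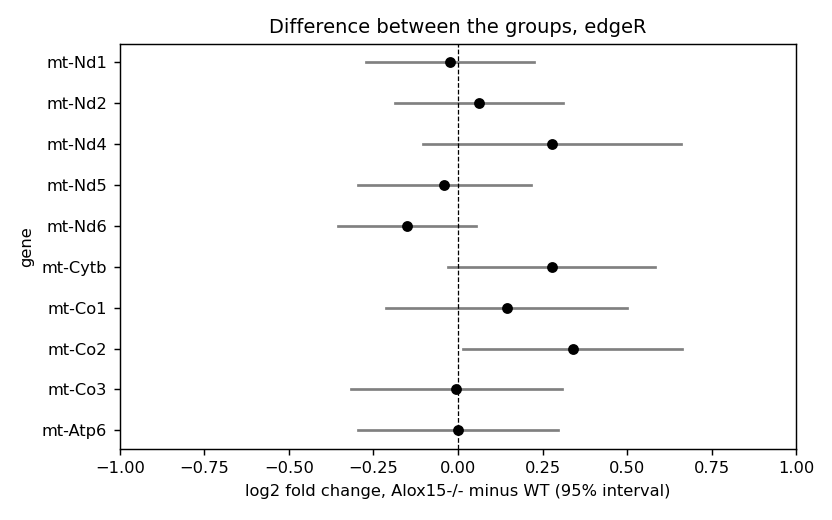
Log2 fold change of each of the 10 genes, the libraries labelled Alox15-/- minus those labelled WT (point), with its 95% interval (line) from edgeR. Values run from -0.15 for mt-Nd6 to 0.34 for mt-Co2, and all intervals but that of mt-Co2 include 0.

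Together the 10 mRNAs took 2.67%, 2.42%, 2.91% and 3.20% of all counts in Alox15-/- replicates 1 to 4 and 2.75%, 2.81%, 2.59% and 2.46% in WT replicates 1 to 4. The lowest and the highest share were both in libraries labelled Alox15-/-, and the WT range lay inside theirs. The means were 2.80% ± 0.334 (SD, n = 4) and 2.65% ± 0.157 (SD, n = 4). With the counts on the nuclear copies described further on, the shares were 4.23%, 3.89%, 4.72% and 5.07% against 4.43%, 4.49%, 4.08% and 3.91%, with means of 4.48% ± 0.521 and 4.23% ± 0.277 (SD, n = 4 each). Each gene had between 1150 and 43728 counts in a library, for which the counting error is between 0.478% and 2.95%, whereas the coefficient of variation within a group was between 5.67% and 27.8%. Without the hemoglobin genes the shares were 2.80% ± 0.333 and 2.65% ± 0.157 (SD, n = 4 each). The part of the other marker lists in these shares was not tested.

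The composition of these counts varied between libraries within both groups. mt-Atp6 made up 17.7% to 26.8% of the counts on the 10 genes, mt-Co1 8.68% to 15.0% and mt-Nd4 6.42% to 11.1%. The share of mt-Co1 was 13.7% in Alox15-/- replicate 4 and 15.0% in WT replicate 3, where the share of mt-Atp6 was lowest, 18.2% and 17.7%. The order was the opposite in WT replicate 4, with 8.68% for mt-Co1 and 26.8% for mt-Atp6. Counts on mt-Co1 were accordingly 0.757 and 0.848 of those on mt-Atp6 in the first pair of libraries, 0.324 in WT replicate 4 and 0.415 to 0.584 in the other 5, a ratio chosen after the values were seen. For none of the 10 did the shares of the groups lie apart.

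**Figure D3:**
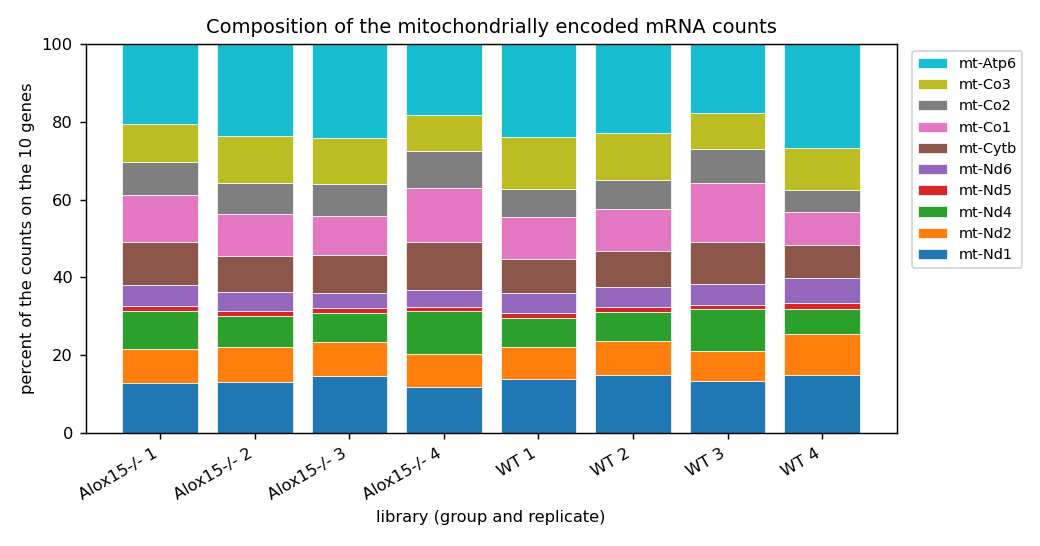
Percent of the counts on the 10 genes that fell on each gene (vertical axis) in each library (horizontal axis), as stacked bars that sum to 100. mt-Atp6 takes 17.7% to 26.8%, and Alox15-/- replicate 4 and WT replicate 3 have the largest shares of mt-Co1, 13.7% and 15.0%.

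Ordered by CPM per kilobase of annotated length over the 8 libraries, mt-Atp6 led with a mean of 8928 CPM per kilobase and a range of 6477 to 10745, above the range of every other gene. mt-Nd1 (3908 CPM per kilobase), mt-Co3 (3840), mt-Co2 (3229), mt-Nd6 (2655), mt-Cytb (2402), mt-Nd2 (2311), mt-Co1 (2037) and mt-Nd4 (1709) followed. Among these 8 the range of each overlapped that of the next, although mt-Co1 was above mt-Nd4 in 8 of 8 libraries. mt-Nd5 was last, at 188 CPM per kilobase with a range of 146 to 223, below every other gene. In an assay that counts 3′ ends a long transcript gains no further counts, so the order by CPM alone is given too. By CPM mt-Atp6 (6080 CPM) was followed by mt-Nd1 (3740 CPM) and mt-Co1 (3147 CPM), and mt-Nd5 (342 CPM) was again last. Both orders leave out the counts on nuclear copies. With these added, mt-Atp6 (17802 CPM per kilobase) was followed by mt-Co3 (8133), mt-Co2 (7200), mt-Co1 (4416) and mt-Nd1 (3908), and mt-Nd5 (190.3) stayed last. By CPM, mt-Co1 (6823 CPM), mt-Co3 (6377 CPM) and mt-Co2 (4925 CPM) then came before mt-Nd1 (3739 CPM).

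Counts on several of these genes are shared with nuclear copies of mitochondrial DNA. A blastn search of the GENCODE transcripts (90% identity or more, alignments of 100 bases or longer) found 15 listed pseudogenes that match a mitochondrial mRNA, of which 7 lie in a block of 4663 bases on chromosome 1 (chr1:24611535-24616197) and 3 on chromosome 2 (chr2:22587291-22590533). Gm10925, identical to mt-Atp6 over 678 bases, had 98.2% to 100.1% as many counts as mt-Atp6. Of the counts on the pair, 49.6% to 50.03% fell on the copy, and the exact binomial 95% interval included an even split in 7 of 8 libraries. Such an interval covers counting error alone and takes each count as independent. Gm28661, identical to mt-Co2 over 681 bases, had 97.6% to 101.4% of the count of mt-Co2, and Gm28437, identical to mt-Co3 over 783 bases, 109% to 116% of that of mt-Co3. The interval of Gm28661 included an even split in 7 of 8 libraries. That of Gm28437 did so in 0 of 8, with 52.3% to 53.6% of the counts on the copy.

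The sequences show how gene and copy compare at the 3′ end. In these windows of 60 bases at or next to the last base of the gene, capitals mark bases of the copy that differ from the mitochondrial gene.
mt-Co1 (chrM:6813-6872, plus strand): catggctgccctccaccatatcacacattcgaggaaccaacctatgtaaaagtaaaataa
Gm29216 (chr1:24615706-24615765, minus strand): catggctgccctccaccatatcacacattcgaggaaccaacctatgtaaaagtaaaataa
Gm13340 (chr2:22588103-22588162, minus strand): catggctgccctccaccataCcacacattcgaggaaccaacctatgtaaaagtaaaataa
mt-Cytb (chrM:15228-15287, plus strand): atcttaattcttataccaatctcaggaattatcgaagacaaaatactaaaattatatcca
Gm11410 (chr4:80005072-80005131, plus strand): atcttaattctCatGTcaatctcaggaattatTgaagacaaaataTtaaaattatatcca
Gm29216 differed from mt-Co1 at 1 of 483 aligned bases and at 0 of these 60, and it had 90.5% to 95.5% of the count of mt-Co1. Gm13340, with 97.61% identity to mt-Co1 over 1545 bases and 1 difference in the window, had 23.1% to 24.6%. Gm11410, with 92.91% identity to mt-Cytb and 5 differences in the window, had 0 to 5 counts in a library, at most 0.0602% of the count of mt-Cytb. Likeness at the 3′ end alone did not order the counts, since Gm13341, 95.91% identical to mt-Co2 over 684 bases, had 0 differences in the window of 60 bases that was compared for mt-Co2 and yet 19.7% to 32.5% of its count.

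Some copies lack a large part of a gene. Among these, Gm29216 and Gm13339 reach its last base and had larger shares of its count than Gm28439, Gm11407, Gm4076 and Gm43743, which do not. These copies also differ in gene and identity. Copies that lack only a few bases at an end, such as Gm10925, Gm28661 and Gm28437, are outside this comparison. Gm29216 holds the last 483 bases of mt-Co1 (bases 1063 to 1545) and drew nearly as many counts as the whole gene. Gm28439 is identical to the first 876 of the 1378 bases of mt-Nd4, and lacks its 3′ end, and it drew 1.51% to 3.27% of the count of mt-Nd4. Gm13339 holds the last 510 bases of mt-Nd2 (bases 529 to 1038) with 96.67% identity, and it drew 15.5% to 16.8% of the count of mt-Nd2. Gm11408, 93.64% identical to mt-Nd6 over 519 bases, had 7.37% to 9.54% of its count. mt-Nd1 had no listed copy by this rule, and each of the 2 of mt-Nd5, Gm11407 and Gm4076, which lack its 3′ end, had at most 1.34% of its count. Gm43743, which holds bases 530 to 645 of mt-Atp6, had at most 0.0347%. How reads that match several places were assigned is not given in the sources used here, and reads that match a gene and its copy equally cannot be told apart. Gm28661 had a log2 fold change of 0.36 (edgeR adjusted p = 0.569) and Gm10925 of 0.0086 (edgeR adjusted p = 0.997). With the copies added, the log2 fold changes of mt-Co1, mt-Co2, mt-Co3 and mt-Atp6 were 0.15, 0.36, 0.0076 and 0.0072, and 0 of the 10 were called.

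**Figure D4:**
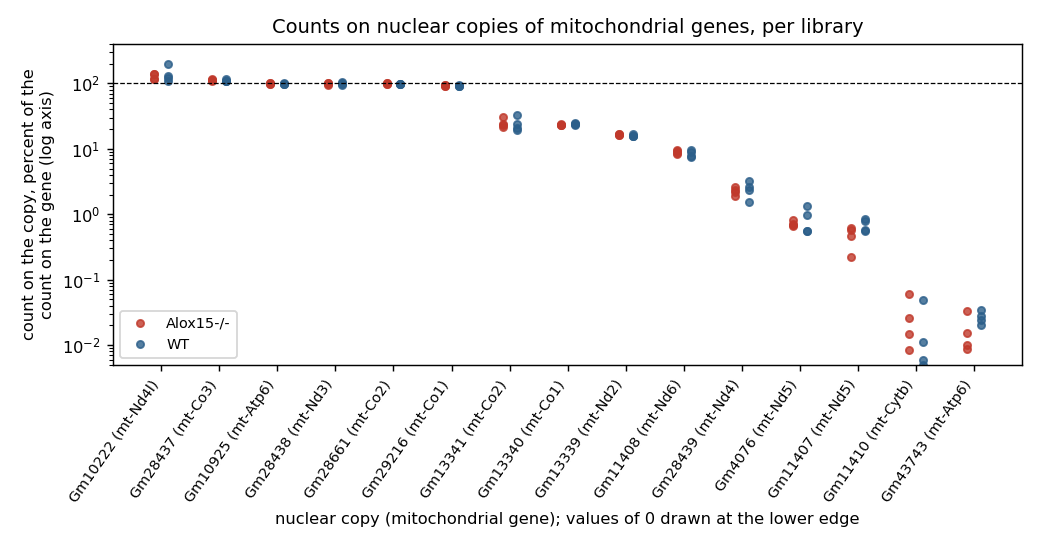
Counts on each listed nuclear copy as a percent of the counts on the mitochondrial gene named in brackets (log axis), with 1 point for each library, Alox15-/- in red and WT in blue, and values of 0 at the lower edge. The copies of mt-Co3, mt-Atp6, mt-Nd3, mt-Co2 and mt-Co1 on chromosome 1 lie near 100% (dashed line), and Gm11410 and Gm43743 below 0.1%. Gm10222, the chromosome 1 copy of mt-Nd4l with 41 to 137 counts in a library, lies at 108% to 196%.

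Of the other mitochondrial genes, 27 were listed and 19 passed the filter, with 9 log2 fold changes above 0, 10 below, and 0 called (edgeR, lowest adjusted p 0.729, 0 at an unadjusted p under 0.05). Among all genes tested these shares were 1.24% called and 7.84% at an unadjusted p under 0.05. The ribosomal RNAs mt-Rnr2 and mt-Rnr1, of the large and small mitochondrial ribosomal subunits, were at 2920 ± 384 CPM against 3157 ± 287 CPM and at 954 ± 68.6 CPM against 1068 ± 343 CPM (SD, n = 4 each). mt-Nd3, a complex I subunit, was at 431 ± 138 CPM against 438 ± 150 CPM (SD, n = 4 each), whereas mt-Nd4l and mt-Atp8, which overlap the start of mt-Nd4 by 7 bases and of mt-Atp6 by 43 bases, were low, at 7.06 to 14.6 CPM and 6.04 to 20.8 CPM in the 8 libraries. Of 14 transfer RNA genes that passed, 9 were under 50 CPM on average. The highest were mt-Te (652 CPM), mt-Tg (307 CPM) and mt-Ts1 (285 CPM). mt-Tg begins at the base after the end of mt-Co3, mt-Ts1 lies on the opposite strand and shares 3 bases with the end of mt-Co1, and mt-Te adjoins mt-Nd6. As above, reads from opposite strands cannot be told apart here.

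The nuclear subunits that join these proteins showed no called gene. Of 70 tested subunits of complexes I, III, IV and V, 52 had a log2 fold change above 0 and 18 below, 0 were called and 1, Atp5j2, had an unadjusted p under 0.05. Of all genes tested 1.24% were called, 7.84% had an unadjusted p under 0.05 and 48.2% lay above 0. All 11 complex IV subunits did, with a median of 0.13 and a range of 0.020 to 0.17, and 28 of 35 of complex I, with a median of 0.12. In complex I, the abundant Ndufa2 and Ndufa3 were at 0.12 (95% interval -0.11 to 0.36) and 0.20 (95% interval -0.033 to 0.44), and Ndufb10 had the smallest p (0.20, edgeR adjusted p = 0.686). Cox6a1 and Cox4i1, the most abundant of complex IV, had log2 fold changes of 0.13 (95% interval -0.10 to 0.36) and 0.094 (95% interval -0.12 to 0.31), and Cox6b1 had the smallest p (0.17, edgeR adjusted p = 0.773). In complex V, 8 lay above 0 and 7 below, and Atp5b and Atp5a1, the catalytic core, were at -0.12 (95% interval -0.32 to 0.082) and -0.19 (95% interval -0.39 to 0.0072), whereas Atp5j2 was at 0.22 (edgeR adjusted p = 0.623). In complex III, 5 of 9 lay above 0. Uqcrq and Uqcrh, the most abundant, were at 0.20 and 0.12, and Uqcrc2, a core protein, was at -0.19 (edgeR adjusted p = 0.696). Of the 4 complex II subunits 3 lay below 0, with Sdha, the flavoprotein, at -0.14, Sdhb, the iron-sulfur subunit, at -0.053 and Sdhd, a membrane anchor, at -0.17 (edgeR adjusted p = 0.738).

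Factors that make and handle mitochondrial RNA were not called either. Of 10 tested genes of mitochondrial transcription 7 lay above 0, with Tfam, which packages and helps transcribe mitochondrial DNA, at 70.5 ± 6.02 CPM against 69.5 ± 7.69 CPM (SD, n = 4 each; log2 fold change 0.021, 95% interval -0.22 to 0.26). The more abundant Mrpl12, a mitochondrial ribosomal protein, was at 0.011 and Mterf4, which had the smallest p of that list, at -0.37 (edgeR adjusted p = 0.654). Of 26 genes of RNA processing and decay 21 lay below 0, with a median of -0.087, 0 called and 3 at an unadjusted p under 0.05. Among all genes tested 1.24% were called and 7.84% had an unadjusted p under 0.05. The most abundant of the 26, the RNA exonuclease Rexo2 and the FASTK family member Tbrg4, were at 0.10 (95% interval -0.11 to 0.31) and -0.11 (95% interval -0.35 to 0.14). Those with an unadjusted p under 0.05 were Fastkd3 (-0.36, edgeR adjusted p = 0.501) and, named after their values were seen, Mrm3 (-0.44, edgeR adjusted p = 0.516) and Grsf1 (-0.26, edgeR adjusted p = 0.616), an RNA-binding protein of mitochondrial RNA granules. Of 13 translation factors 4 lay above 0, with the elongation factor Tufm at -0.057 and the membrane insertase Oxa1l at -0.21 (edgeR adjusted p = 0.650). Of 16 genes of mitochondrial DNA replication and nucleotides 8 did, with the DNA polymerase Polg at -0.14 and the ribonucleotide reductase subunit Rrm2b at 0.25. Of 9 regulators of mitochondrial biogenesis 4 did, with the transcription factors Myc at -0.0077, Yy1 at -0.096 and Nrf1 at -0.17 (edgeR adjusted p = 0.758). Of 12 chaperones, proteases and stress factors 3 did, with the chaperone Hspa9 at -0.17 (edgeR adjusted p = 0.683) and the stress-response factor Atf4 at 0.063. Over all 11 lists, 160 of 167 genes were tested, 84 lay above 0 and 76 below, 0 were called, and 5 had an unadjusted p under 0.05, the fifth being Lig3 (-0.31, edgeR adjusted p = 0.582), a DNA ligase of mitochondria and the nucleus.

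The genes outside the mitochondrial chromosome whose level followed the summed CPM of the 10 mRNAs most closely over the 8 libraries were 1110004E09Rik (Pearson r = 0.969), Gm10451 (0.954), Lsm1 (0.946), Mrps18c (0.940) and Gm8618 (0.939). These are the 5 highest of the genes tested outside the mitochondrial chromosome, the points share library and depth, and r describes these 8 libraries only. The sum itself had a mean of 28252 ± 3472 CPM over the Alox15-/- libraries and of 26565 ± 1958 CPM over the WT libraries (SD, n = 4 each).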

How the data were processed

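The deposited values are raw counts, not normalized, of 28239 gene symbols in 8 libraries, from reads that the labels call cleaned and trimmed. The study's methods name a MACE-Seq kit, whereas the labels name a small RNA kit. The submitters' processing notes name Bowtie, edgeR and GRCm38, and the handling of strand, duplicates and reads matching several places is not given in the sources used here. Genes reaching 2 CPM in 4 or more libraries were tested, the filter of the study's methods, after TMM scaling, with the quasi-likelihood test of edgeR 4.0.16 in R 4.3.3, the group as the only term and Benjamini–Hochberg adjustment (threshold 0.05). A standard error is the log2 fold change divided by the square root of F. Total counts were 3723151 to 9538962, and the biological coefficient of variation was 14.5%. The study gives 4 Alox15-/- mice for this experiment, but no label ties a library to an animal, and p-values measure the spread between these libraries. Squared differences between replicates of a group were 4.59 to 17.4 times the variance of sampling noise (chi-square per degree of freedom), a ratio that grows with depth.

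The 10 members and all gene lists were chosen with earlier results of these data known, so they get no set test and no p of their own. Named genes are the members, other mitochondrial genes and copies, from each list the 2 most abundant and the one with the smallest p, and the 5 closest in pattern, measured on log2(CPM + 0.5). Copies were sought with blastn 2.17.0 in GENCODE M21 transcripts. The fit was tested on simulated data. Alternatives were other scalings, filters and tests (DESeq2 1.42.0, limma 3.58.1), copies added, the replicate number as a block, and each library left out.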

Additional observations from a re-analysis of the deposited data

Results flagged for a closer look

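Within a group of 4 libraries, single libraries stood far from the other 3 (by Dixon's critical value at the 95% level) in 10 of 176 groups examined, or 5.68%, where chance gives about 5%. In WT replicate 3, mt-Atp6 was at 4411 CPM with the nearest WT library at 6522 CPM, its copy Gm10925 was at 4333 CPM against 6437 CPM, and the complex V share of all counts, which is mt-Atp6 alone, was 0.458% against 0.644%. In the same library Ndufa2, a nuclear complex I subunit, was at 178 CPM against 223 CPM. In WT replicate 4, mt-Atp8 was at 20.8 CPM against 8.65 CPM, mt-Tl1 at 84.4 CPM against 59.9 CPM, mt-Tq at 37.1 CPM against 1.61 CPM, and the complex IV members at 0.616% of all counts against 0.848%. Mrm3 was at 11.5 CPM in Alox15-/- replicate 4, and Tufm at 102 CPM in Alox15-/- replicate 3 against 81.1 CPM.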

How the results depend on the processing

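Over 21 alternatives, 0 of the 10 members and, in the 12 run for them, 0 of the genes of the pathway lists were called, and the lowest adjusted p of a member was 0.128, for mt-Co2 without a filter. The highest of mt-Co2 was 0.905. The number of genes called, 158 in all, was 388 without a filter and 100 with at least 10 counts in every library, and ranged from 86 to 172 with each library left out. It was 95, 86 and 93 without Alox15-/- replicates 1, 2 and 3 and 105 without WT replicate 2. Of 210 member values, 189 kept their direction and 21 turned, all of them in 6 genes with values between -0.040 and 0.14, and none was called. mt-Nd1 turned to 0.0042 and mt-Co3 to 0.023 with upper quartile scaling, and mt-Atp6 to -0.0084 with library totals alone. These scalings moved the median of all genes tested from -0.0075 to 0.021 and to -0.020. mt-Atp6 was -0.020 without a filter. mt-Co3 was 0.0036 with at least 10 counts in every library, 0.014 with limma-voom and 0.0076 with the copies added. With each library left out, mt-Nd1 ranged from -0.12 to 0.040, mt-Nd2 from -0.022 to 0.13, mt-Nd5 from -0.14 to 0.047, mt-Co1 from -0.023 to 0.27, mt-Co3 from -0.11 to 0.11 and mt-Atp6 from -0.12 to 0.053. The median of the members lay between -0.049 and 0.088, and their share of counts was 0.0131 to 0.273 percentage points higher in the libraries labelled Alox15-/-. With the replicate number as a block, 146 genes were called and mt-Co3 was 0.012. The numbers are not stated to pair mice, and deviations of same-numbered libraries correlated at 0.0691, 0.165, -0.178 and -0.0177.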
